A study of Mus musculus with 9 samples.

Results

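ER to Golgi vesicle transport is the first step of secretion, and the genes described here are 45 parts of its machinery among the 55385 genes in the count files. The 45 were given as a list of symbols, without use of measured values, and every one of them was found by its symbol. They fall by role into 12 genes of the COPII coat and its assembly, 11 cargo receptors, 3 KDEL receptors, 9 genes of the COPI coat and ARF GTPases, and 10 tethers, SNAREs and Golgi membrane proteins. All 45 are protein-coding genes, with positions in assembly GRCm38.p6.

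The transcripts were counted by CITE-seq, a droplet method that reads RNA and antibody tags from the same cells, on total splenocytes of mice sorted with the dead-cell dye DAPI. The mice were wild type (WT, 4 replicates), heterozygous (R594C/+, 4 replicates) or homozygous (R594C/R594C, 2 replicates) for the R594C change in IRE1, the ER stress sensor encoded by Ern1, and replicates were told apart by hashtag antibodies. The sources used here name neither the strain nor the age. Whether each hashtag replicate was 1 animal is not stated either, so a p-value here speaks of the spread between hashtag samples, which may be technical. Each genotype was 1 capture, so genotype and capture cannot be told apart.

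Vesicles with a COPII coat bud from the ER and carry folded secretory cargo forward. Vesicles with a COPI coat bring escaped ER proteins and the machinery itself back, and tethers and SNAREs make the vesicles dock and fuse at the Golgi. Plasma cells, which secrete antibody continuously, are known for an expanded ER and Golgi. IRE1 splices the Xbp1 transcript, the spliced form encodes the transcription factor XBP1s, and XBP1s is known to switch on many genes of the secretory pathway in these cells. The series asks whether the R594C change alters the immune cells of the spleen, and its title ties that change to lost Xbp1 splicing.

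The 3 captures held 16027 to 17980 barcodes and 74538447 to 87953814 RNA UMIs (molecular tags that mark original transcripts), and 68 to 89 barcode sequences were shared between a pair of captures. After filters, 41642 cells were used, with 2860 to 7223 per replicate. Plasma cells were defined by at least 5 Xbp1 and 20 Jchain UMIs. The gate held 814 cells, 42 to 125 per replicate, and 794 of them lay in clusters named plasma cell-like by marker genes. The summed level of the 10 plasma cell markers was 64160 to 103300 scaled CPM in the 10 replicates. Scaled CPM (counts scaled to a common total of UMIs) were computed with TMM factors over all classes, a step that sets most genes level between classes and so takes little account of the immunoglobulin transcripts, which were 54.3 to 63.3% of the UMIs of the gated cells. Each test used TMM factors of its own samples, so a fold change can differ from the ratio of the printed levels. The median gated cell held 16586.5 to 22706.5 UMIs, against 2242 to 2672 in follicular-like B cells. Xist and Y-linked transcripts were those of females in all 4 R594C/+ replicates, in WT replicate 2 and in R594C/R594C replicate 2, and of males in the other 4 replicates. WT and R594C/R594C each held both sexes, so their replicates were not all drawn from a single animal. Gene counts do not read the R594C base or the splicing of Xbp1, so they cannot check the genotype labels. Xbp1, which the gate uses, was at 2470 ± 474 scaled CPM in gated WT cells (SD, n = 4), 2998 ± 246 in R594C/+ (n = 4) and 3038 ± 425 in R594C/R594C (n = 2).

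Promoters are shown first because XBP1s is known to bind the motif TGACGTG, often called the UPRE, and because the members' levels below differ most between plasma cells and other cells. The RefSeq promoter table (GRCm38.p6, 250 bases before to 50 after each start, 300 in all) held 37 of the 45 genes. On either strand, TGACGTG was found in the promoters of 7 of these 37 genes (18.9%), against 601 of the 27025 genes in the table (2.22%). The ER stress elements ERSE (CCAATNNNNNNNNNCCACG) and ERSE-II, also read on both strands, were found in 0 of the 37 and in 0.14% and 0.04% of all genes. The 8 hits in 7 genes are printed from the gene's own strand, 5′ to 3′, with up to 17 bases on each side and the motif or its complement in capitals.

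Sec24d: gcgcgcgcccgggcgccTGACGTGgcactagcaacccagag

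Kdelr3: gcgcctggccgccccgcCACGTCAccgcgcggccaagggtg

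Copb1: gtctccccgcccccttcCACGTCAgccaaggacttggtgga

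Copb2: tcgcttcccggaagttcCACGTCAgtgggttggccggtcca

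Arf1: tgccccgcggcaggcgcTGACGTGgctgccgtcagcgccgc

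Sec23a: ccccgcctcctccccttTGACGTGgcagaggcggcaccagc

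Stx5a, first hit: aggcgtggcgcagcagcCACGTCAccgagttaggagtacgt

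Stx5a, second hit: ttaggagtacgtctaggTGACGTGgcgg

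In the order shown, the first base of each hit lay at −26, −29, −27, −6, 22, 7, 11 and 40 relative to the start. The windows are chr3:123267453-123267493 (+ strand), chr15:79516362-79516402 (+), chr7:114254684-114254724 (−), chr9:98563708-98563748 (+), chr11:59228223-59228263 (−), chr12:59011988-59012028 (−), chr19:8741417-8741457 (+) and chr19:8741446-8741473 (+), so the 2 Stx5a windows overlap. These hits describe letters in a window and do not show that a factor binds there.

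Gated plasma cells carried far more transport transcripts than follicular-like B cells, the main resting B cells of the spleen. The summed level of the 45 genes was 9645 ± 895 scaled CPM in plasma cells and 3329 ± 110.0 in follicular-like B cells (mean ± SD, n = 10 each), with ranges of 8227 to 10800 and 3198 to 3487. In this comparison of sums per replicate (edgeR quasi-likelihood test with the replicate as a block, Benjamini-Hochberg adjusted p under 0.05), 44 members had enough counts to test and all 44 passed, 42 higher and 2 lower in plasma cells. Of all 8563 genes tested, 75.3% passed, 35.9% higher and 39.3% lower. The members' median log2 fold change was 1.55, and that of all genes tested was −0.05. With library totals in place of TMM scaling, the median of all genes moved to −1.34, the members' median was 0.26, and 23 members were higher and 11 lower (the share of all genes called there is not given). The direction of the weaker changes is therefore relative to the other genes of the cell. In bulk sums of this kind, fewer cells that express a gene and less RNA per cell cannot be told apart.

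Across 18 cell classes with enough cells, plasma cells had the highest mean level for 40 of the 45 genes, as drawn in the map of levels by class. For 27 of those 40, every plasma cell replicate lay above every replicate of the class ranked next. The share of all genes highest in plasma cells is not given, so these counts do not set the members apart from other genes. These ranks, and the sums below, use TMM-scaled levels only. The TMM factors were 0.377 to 0.511 in plasma cells and 1.277 to 1.644 in plasmacytoid DC-like cells. Ranks under library totals are not given, and the order of classes could differ there. The exceptions in rank were Sec24b, Tmed5 and Tmed7, highest in monocyte-like cells, Arf4 in migratory dendritic cell (DC)-like cells and Mcfd2 in macrophage-like cells, and each of these 5 overlapped the class ranked next. The 45 genes summed to a mean of 3475 ± 336 scaled CPM in monocyte-like cells (SD, n = 10), the second highest class, to 3092 ± 451 in plasmacytoid DC-like cells (SD, n = 6), and to 2364 ± 225 in migratory DC-like cells (SD, n = 7), the lowest.

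**Figure D1:**
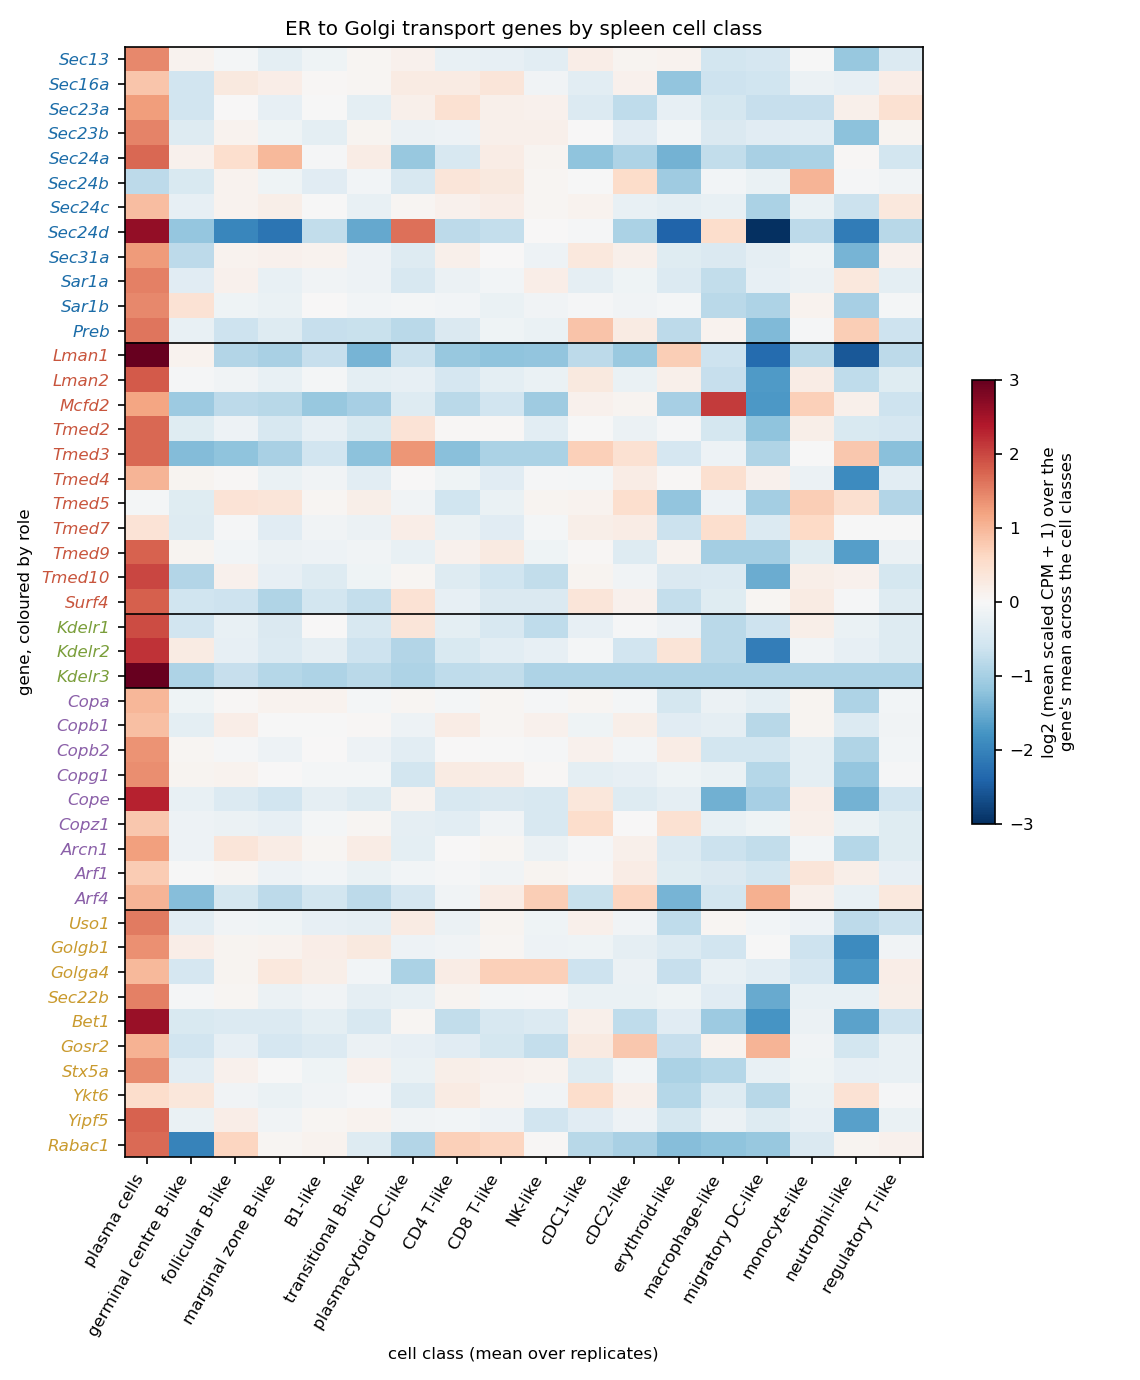
Level of each of the 45 genes (rows, coloured by role) in 18 cell classes (columns), as the log2 of the mean scaled CPM plus 1 over the gene's mean across classes; the colour scale ends at 3 on either side. Plasma cells, in the first column, have the highest level for 40 genes, while Tmed5 is pale and Sec24b is blue there.

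Genes of the COPII coat were higher in plasma cells with 1 exception. Sec24d encodes 1 of the coat's cargo-binding subunits. Its level was 1.01 to 4.796 scaled CPM in follicular-like B cells (median 2.43) and 57.2 to 115 in plasma cells (median 84.7). The groups were far apart, and the log2 fold change was 5.09 ± 0.15 (SE, edgeR adjusted p = 4.3e-25). The other Sec24 paralogs, which bind partly different cargo, moved less. Sec24a, at 45.6 to 72.8 (median 58.1) in follicular-like B cells and 93.3 to 170.1 (median 149) in plasma cells, rose by 1.42 ± 0.095 on the log2 scale. Sec24c, at 20.3 to 35.1 (median 30.4) and 38.5 to 71.96 (median 50.7), rose by 0.99 ± 0.115, and the ranges lay close but did not overlap. Sec24b fell by 0.73 ± 0.15, from 25.4 to 38.3 (median 31.6) to 9.72 to 26.8 (median 17.3), on only 5 to 25 UMIs per plasma cell replicate.

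The inner coat partners of Sec24 are Sec23a and Sec23b. Sec23a was at 8.56 to 17.5 (median 11.9) scaled CPM in follicular-like B cells and 20.02 to 44.9 (median 30.3) in plasma cells. Sec23b went from 28.3 to 36.3 (median 33.01) to 67.8 to 125 (median 85.3). Their log2 fold changes were close, 1.42 ± 0.16 and 1.55 ± 0.10. The GTPases Sar1a and Sar1b, which start the coat, rose by 1.54 ± 0.06 and 1.735 ± 0.075. Sar1a stood at 92.9 to 118 (median 110.2) and then at 259.7 to 309 (median 279), and Sar1b at 46.6 to 58.4 (median 53.7) and then at 125 to 181 (median 160.0), with no overlap for either. Preb, the exchange factor that loads Sar1 with GTP, rose by 2.42 ± 0.09. The outer coat genes Sec13 and Sec31a rose by 1.67 ± 0.07 and 1.35 ± 0.08. Sec16a, a scaffold of ER exit sites, was among the 4 lowest folds at 0.73 ± 0.115, from 26.1 to 35.9 (median 32.9) to 34.1 to 66.4 (median 46.4), and was lower in plasma cells under library totals (−0.56).

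Cargo receptors had the largest median fold among the roles with more than 3 genes, 2.03 on the log2 scale, with 10 of 11 higher. Lman1 (ERGIC-53) is a lectin that carries glycoproteins out of the ER. It rose from 29.2 to 46.5 scaled CPM (median 35.9) to 309.7 to 673 (median 556), a log2 fold change of 4.02 ± 0.09 (edgeR adjusted p = 1.88e-24). Its partner Mcfd2 rose by 2.14 ± 0.155 and the related lectin Lman2 by 2.085 ± 0.07. Surf4, a receptor for soluble cargo, rose by 2.58 ± 0.08.

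The p24 family, encoded by the Tmed genes, helps select cargo and form vesicles in both directions. Tmed3 rose most among them, from 21.4 to 31.9 scaled CPM (median 23.7) to 106 to 253 (median 199), a log2 fold change of 3.06 ± 0.10. Tmed2, Tmed9 and Tmed10 rose by 2.03 ± 0.06, 1.98 ± 0.06 and 2.02 ± 0.06. Tmed2 went from 147 to 176 (median 156) to 506 to 691 (median 584), Tmed9 from 131 to 158 (median 145) to 435 to 612 (median 514), and Tmed10 from 204 to 262 (median 229) to 673 to 1004 (median 852). Tmed4 rose by 1.17 ± 0.13, from 10.5 to 21.2 (median 16.7) to 28.8 to 39.8 (median 33.4). Tmed7 was near the low end at 0.615 ± 0.09, from 43.4 to 67.5 (median 52.9) to 62.1 to 87.8 (median 74.6), and turned to −0.67 under library totals. Tmed5 was the 1 cargo receptor gene that fell, by 0.31 ± 0.06, from 236 to 296 (median 267) to 166 to 222 (median 184), with no overlap.

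KDEL receptors catch ER chaperones that have reached the Golgi and return them. Kdelr1 rose from 48.7 to 61.1 scaled CPM (median 54.7) to 205 to 293 (median 252), and Kdelr2 from 47.8 to 65.4 (median 57.6) to 243 to 368 (median 311). Their log2 fold changes were 2.355 ± 0.075 and 2.58 ± 0.07. Kdelr3 had too few counts in follicular-like B cells to be tested. It had 5 UMIs there in all 10 replicates together, at 0 to 0.685 scaled CPM (median 0), and 6 to 21 UMIs per replicate in plasma cells, at 7.98 to 26.95 scaled CPM (median 15.4).

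All 9 COPI coat and ARF genes were higher in plasma cells, by a median of 1.14 on the log2 scale. Cope, a coat subunit, stood out in that role at 2.88 ± 0.07, from 69.5 to 86.7 scaled CPM (median 78.7) to 404 to 628 (median 539). The next was Arf4 at 1.703 ± 0.06, a GTPase of the early Golgi. Arf1, the GTPase that recruits the COPI coat, had the smallest fold of the role at 0.86 ± 0.055. Among tethers, SNAREs and Golgi membrane proteins, all 10 were higher, by a median of 1.45. Bet1, a SNARE of ER-derived vesicles, rose from 20.7 to 32.7 (median 24.1) to 166 to 234 (median 208), a log2 fold change of 3.205 ± 0.09. The tether Uso1 (p115) rose by 1.84 ± 0.08, and the SNARE Ykt6 had the smallest fold of the role at 0.82 ± 0.13. Rabac1, a Golgi protein that binds prenylated Rab GTPases, rose by 1.195 ± 0.075, from 289 to 346 (median 311) to 399 to 754 (median 682).

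**Figure D2:**
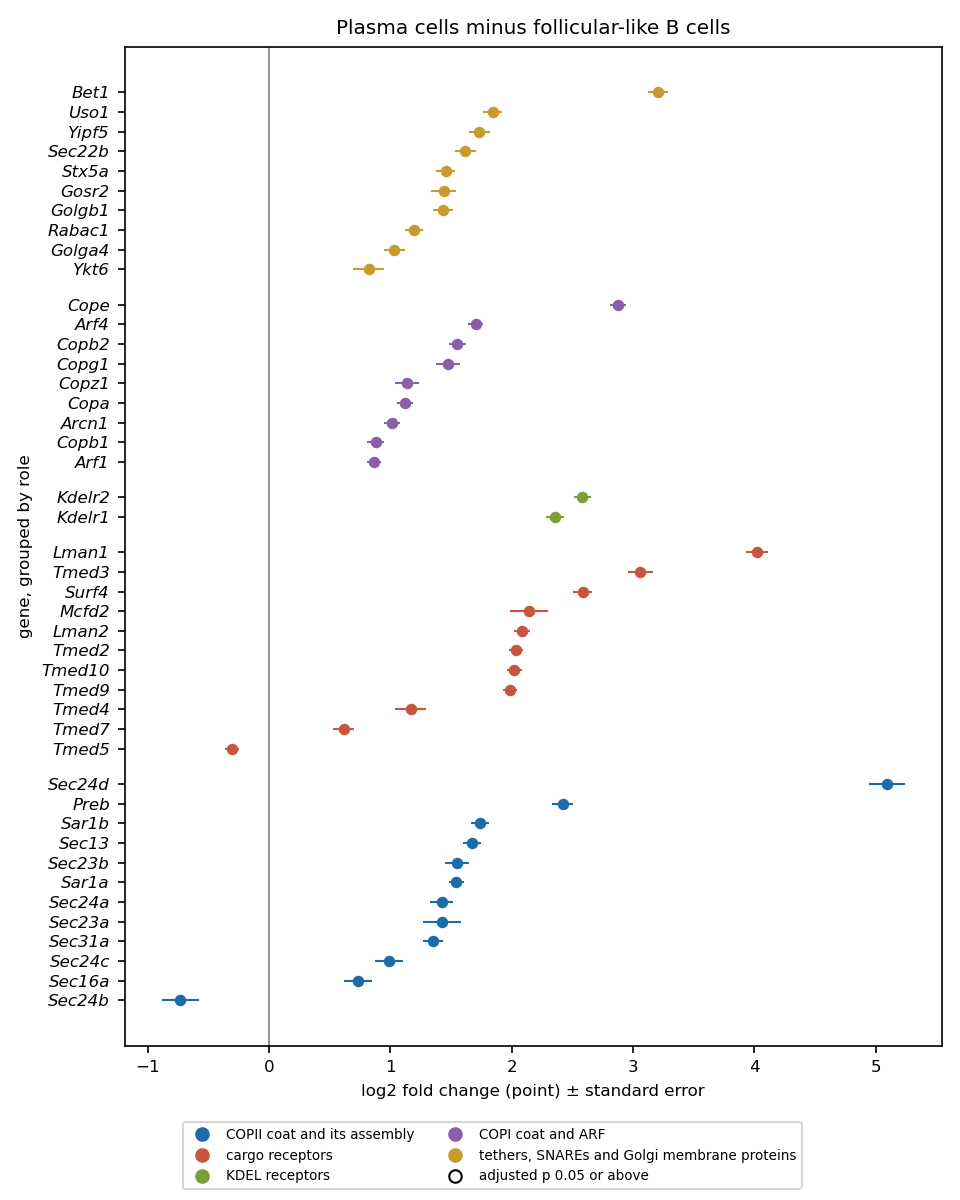
Log2 fold change, plasma cells minus follicular-like B cells, of the 44 members tested, with bars of 1 standard error, grouped and coloured by role; all 44 points are filled because all passed adjusted p 0.05. Sec24d (5.09) and Lman1 (4.02) lie farthest right, and Tmed5 and Sec24b lie left of 0.

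Other genes of the pathway moved less uniformly. Of 84 further genes of ER to Golgi transport, 77 were tested, and 43 were higher, 15 lower and 19 not past the threshold in plasma cells, with a median log2 fold change of 0.54. Of all 8563 genes, 75.3% passed, 35.9% higher and 39.3% lower, so a pass by itself does not set these genes apart. The 3 highest were Copz2, a COPI subunit paralog with almost no counts in follicular-like B cells (7.39 ± 0.355), Ergic1, a protein of the ER-Golgi intermediate compartment (3.985 ± 0.10), and Arfgap3, which switches ARF off (3.94 ± 0.14). The 3 lowest were Tmed8 (−2.11 ± 0.18), Arfgef1 (−0.96 ± 0.09) and Klhl12 (−0.96 ± 0.14). All 6 passed the edgeR test, with the largest adjusted p = 3.02e-07.

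Marginal zone-like B cells and B1-like cells, the innate-like B cells of the spleen, had smaller fold changes against follicular-like B cells. In marginal zone-like cells, 14 of 43 members tested passed, 5 higher and 9 lower, while 48.6% of all 9009 genes did, 24.8% higher and 23.8% lower. With library totals the split was 4 higher and 21 lower, and the share of all genes called there is not given. Sec24a rose by 0.56 ± 0.06 on the log2 scale, from the follicular-like values above to 66.7 to 93.8 scaled CPM (median 84.7). Preb rose by 0.335 ± 0.09 to 24.5 to 42.1 (median 30.1), Tmed3 by 0.31 ± 0.09 to 22.9 to 40.6 (median 27.8) and Golga4, a trans-Golgi tether, by 0.29 ± 0.06 to 69.8 to 96.5 (median 82.1). The lowest was Rabac1, which fell by 0.50 ± 0.04 to 179 to 224 (median 208), with no overlap with follicular-like B cells. Tmed10 fell by 0.32 ± 0.04 to 161 to 189.9 (median 176), Sar1a by 0.28 ± 0.05 to 75.2 to 94.4 (median 83.9) and Tmed2 by 0.25 ± 0.045 to 111 to 143 (median 128). Of 76 further pathway genes tested, 9 were higher, led by Copg2 (0.92 ± 0.095), Trappc6a (0.87 ± 0.07) and Bcap29 (0.59 ± 0.08), and 15 were lower, led by Gorasp2 (−0.50 ± 0.07), Yif1b (−0.41 ± 0.09) and Yif1a (−0.355 ± 0.09).

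In B1-like cells, which make much of the natural antibody, 18 of 43 members tested passed, 12 higher and 6 lower, against 52.6% of all 8626 genes, 26.9% higher and 25.7% lower. Tmed3 was the highest, with a log2 fold change of 0.77 ± 0.11 and a level of 25.7 to 54.9 scaled CPM (median 35.5). Kdelr1 rose by 0.395 ± 0.08 to 54.01 to 74.8 (median 65.96), Lman1 by 0.30 ± 0.10 to 27.2 to 60.8 (median 38.8) and Sar1b by 0.27 ± 0.08 to 45.1 to 68.4 (median 56.5). At the low end, Rabac1 fell by 0.40 ± 0.05 to 175 to 237 (median 215) and Tmed10 by 0.37 ± 0.06 to 129.7 to 182 (median 162). The Sec24 paralogs Sec24a and Sec24b fell by 0.36 ± 0.095 to 18.4 to 60.3 (median 41.3) and by 0.35 ± 0.11 to 15.6 to 30.9 (median 25.95). Of 75 further pathway genes, 18 were higher, led by Yipf2 (0.87 ± 0.21), Ergic1 (0.81 ± 0.16) and Trappc6a (0.67 ± 0.09), and 10 lower, led by Trappc5 (−0.59 ± 0.07), Tmed8 (−0.58 ± 0.12) and Klhl12 (−0.50 ± 0.12).

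Plasmacytoid DCs secrete interferon and share a large ER with plasma cells. Only the 4 R594C/+ and 2 R594C/R594C replicates had at least 10 plasmacytoid DC-like cells (12 to 36 each), so WT is not in this comparison. Of 44 members tested, 16 were higher and 2 lower than in follicular-like B cells, and 43.1% of all 7493 genes passed, 20.7% higher and 22.5% lower. The members' median log2 fold change was 0.38. On scaled CPM their sum lay the other way, at a mean of 3092 against 3329 in follicular-like B cells (all 10 replicates). The 2 scales use different TMM factors, so levels and folds differ here. Sec24d was the highest again, at 11.5 to 77.1 scaled CPM (median 45.6) on 2 to 20 UMIs per replicate, against 1.83 to 3.11 in follicular-like B cells of the same 6 replicates, a log2 fold change of 4.69 ± 0.38. Tmed3 was at 114 to 193 (median 137), a log2 fold change of 3.01 ± 0.19 (edgeR adjusted p = 4.46e-56). The edgeR test pools the spread over genes, so this p-value does not rest on the 6 replicates alone. Surf4 rose by 1.52 ± 0.19 to 60.5 to 119.9 (median 96.1) and Tmed2 by 1.07 ± 0.13 to 175 to 279.8 (median 243). Sec24a fell by 1.285 ± 0.31 to 0 to 39.1 (median 18.3) on 0 to 6 UMIs, and Rabac1 by 1.03 ± 0.14 to 93.1 to 124 (median 101). The next lowest did not pass: Golga4 was at 18.2 to 51.8 (median 30.1) (−0.56 ± 0.25, edgeR adjusted p = 0.0547, under 0.05 in 8 of 15 alternatives) and Copg1 at 7.82 to 39.9 (median 18.7) (−0.235 ± 0.325). Among 72 further pathway genes, 12 were higher, led by Ergic1 (2.51 ± 0.31), Golga2 (1.15 ± 0.34) and Trappc5 (0.95 ± 0.16), and 8 lower, led by Klhl12 (−1.94 ± 0.47), Rab2b (−1.25 ± 0.53) and Tmed8 (−1.04 ± 0.40).

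Plasmablasts, the dividing precursors of plasma cells, also pass a gate on Xbp1 and Jchain. Cells with at least 2 UMIs over 5 cycling genes (Mki67, Top2a, Birc5, Cdk1 and Ccnb1) were set against cells with 0 in the 9 replicates that had at least 10 of each. WT replicate 4, with 7 cycling cells, was not used. Of 38 members tested, 5 were higher and 11 lower in the cycling cells, and 41.8% of all 3193 genes passed, 20.3% higher and 21.5% lower. The roles differed in what passed: 7 of 9 tethers, SNAREs and Golgi membrane proteins tested were lower and 0 higher, while in the COPII role 1 of 9 was higher (Sec24a) and 0 lower. That difference between roles was not tested, and its direction is relative to the other genes of the cell. With library totals, as given below, nearly all members tested were higher in the cycling cells, and the median of all genes was above 0 too.

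Rabac1 showed the largest change with cycling. It was at 201 to 417 scaled CPM (median 310.1) in the 9 cycling sums and at 538 to 887 (median 764) in the 10 sums of non-cycling cells. The groups did not overlap, and the log2 fold change was −1.21 ± 0.09 (edgeR adjusted p = 3.88e-11). Tmed3 was at 58.2 to 174 (median 105) and at 115 to 310.2 (median 222), a log2 fold change of −1.04 ± 0.12. Tmed10 (469 to 722, median 628, against 667 to 1041, median 915) fell by 0.49 ± 0.08, and the SNARE Sec22b (64.8 to 180.0, median 96.8, against 95.96 to 202, median 149) by 0.45 ± 0.14. On the high side, Tmed7 (48.4 to 102, median 82.1, against 54.7 to 71.7, median 61.2) rose by 0.47 ± 0.16 and Kdelr2 (207 to 417, median 332, against a median of 244) by 0.45 ± 0.12. Lman1 (262 to 757, median 619.6, against 294 to 502, median 453) rose by 0.43 ± 0.09, and Copb1, a COPI subunit (117 to 279, median 152, against 90.9 to 169, median 136), by 0.39 ± 0.12.

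Immunoglobulin transcripts were 32.3 to 48.8% of the UMIs of the cycling sums and 63.3 to 67.95% of the non-cycling ones. With library totals, the median of all genes moved to 0.91, 36 members were higher and 1 lower, Sec22b and Tmed10 turned to 0.47 and 0.42, and Tmed3 was no longer past the threshold (−0.13). The share of all genes called there is not given. With DESeq2, 8 members passed, 3 higher and 5 lower. Of 38 further pathway genes, Trappc6a (0.62 ± 0.22) was the 1 that was higher, and 12 were lower, led by Use1, a SNARE of the return route to the ER (−0.85 ± 0.14), Yif1a (−0.83 ± 0.15) and Rint1 (−0.765 ± 0.18).

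**Figure D3:**
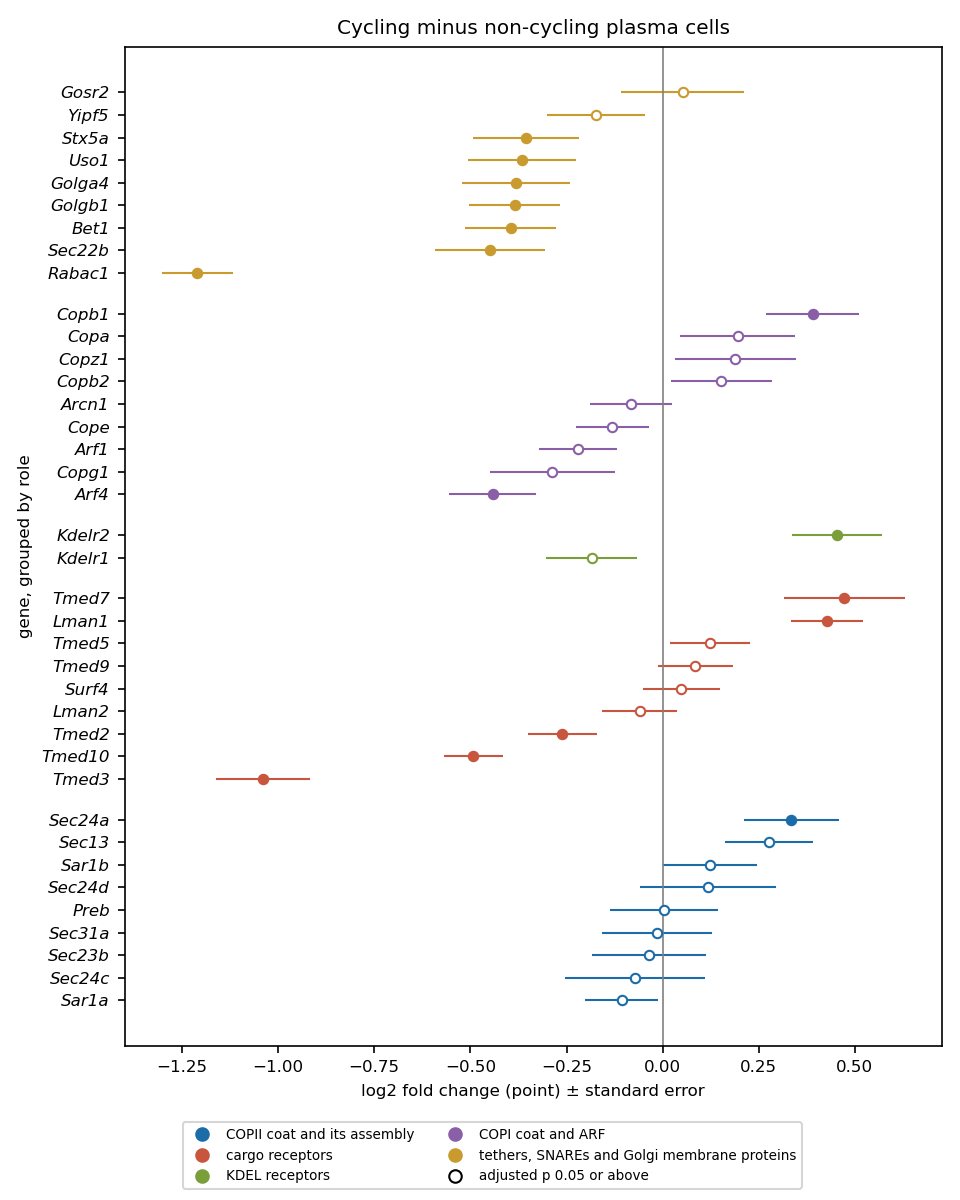
Log2 fold change, cycling minus non-cycling plasma cells, of the 38 members tested, with bars of 1 standard error, grouped and coloured by role; filled points passed adjusted p 0.05. With TMM scaling, Rabac1 (−1.21) and Tmed3 (−1.04) lie far left of the rest, and the tethers and SNAREs lie mostly left of 0.

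In plasma cells of R594C/R594C mice, 3 members were lower than in WT: Tmed3, Rabac1 and Lman1. They were 3 of 45 tested (edgeR over all 10 replicates), and 0.272% of all 7719 genes passed, 0.207% lower. Of the 45, 39 had a log2 fold change below 0 (3905 of all 7719 genes did). The median was −0.24 against −0.004 for all genes, and 16 had an unadjusted p under 0.05 (566 of all genes did). The summed level of the 45 genes was 9359 to 10400 scaled CPM in WT, 9520 to 10800 in R594C/+ and 8227 to 8233 in R594C/R594C.

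Tmed3 was at 253, 176, 239 and 219.8 scaled CPM in WT replicates 1 to 4, at 200.2, 191, 198 and 210.0 in R594C/+ and at 106 and 118 in R594C/R594C. Both R594C/R594C values lay below all 8 others, on 80 to 178 UMIs per replicate. The log2 fold change from WT was −1.003 ± 0.165 (SE, edgeR adjusted p = 0.00603), and from R594C/+ it was −0.83 ± 0.16 (adjusted p = 0.0195). Tmed3 lies at chr9:89699203-89705043 and Rabac1 at chr7:24969750-24972728. Neither promoter window (chr9:89704994-89705293 and chr7:24972679-24972978, both on the − strand) held a motif searched for, and they are printed because both genes fell.

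Tmed3: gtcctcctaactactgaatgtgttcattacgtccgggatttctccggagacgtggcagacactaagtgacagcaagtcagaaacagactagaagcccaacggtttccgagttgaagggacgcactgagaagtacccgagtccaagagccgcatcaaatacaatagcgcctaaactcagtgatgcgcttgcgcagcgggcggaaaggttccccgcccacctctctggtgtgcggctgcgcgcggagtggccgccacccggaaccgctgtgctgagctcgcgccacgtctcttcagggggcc

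Rabac1: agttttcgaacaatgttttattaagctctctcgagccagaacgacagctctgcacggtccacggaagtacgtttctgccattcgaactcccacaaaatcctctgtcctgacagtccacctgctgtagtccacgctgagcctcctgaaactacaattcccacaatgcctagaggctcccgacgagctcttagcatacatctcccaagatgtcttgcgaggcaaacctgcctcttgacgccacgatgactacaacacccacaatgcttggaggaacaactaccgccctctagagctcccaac

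Rabac1 was at 689, 603, 669 and 675 scaled CPM in WT, at 721, 754, 753 and 703 in R594C/+ and at 399 and 473 in R594C/R594C. Again both homozygous values were below the rest, with a log2 fold change of −0.625 ± 0.11 from WT (edgeR adjusted p = 0.0103) and −0.75 ± 0.11 from R594C/+ (adjusted p = 0.00156). Lman1 was at 590.1, 542, 628 and 558 in WT, at 629.7, 673, 553 and 506 in R594C/+ and at 439.9 and 309.7 in R594C/R594C. The homozygous replicates lay lowest but far from each other, and the log2 fold change was −0.65 ± 0.14 from WT (edgeR adjusted p = 0.0444) and −0.65 ± 0.14 from R594C/+ (adjusted p = 0.0403). The comparisons with WT and with R594C/+ share the R594C/R594C samples.

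These 3 calls rested on few replicates. Without R594C/R594C replicate 1, 1 member passed against WT (Lman1), and without replicate 2 none did (edgeR, with the spread pooled over the other groups), while the fold changes of Tmed3 stayed at −0.94 and −1.08. In the comparison with R594C/+, 1 member passed without either R594C/R594C replicate (Lman1 without replicate 1, Rabac1 without replicate 2), and 1 (Rabac1) without R594C/+ replicate 1. Lman1 was the least steady: its call against WT was lost in 11 alternatives (edgeR adjusted p up to 0.603), among them leaving out R594C/R594C replicate 2, R594C/+ replicates 1, 2 or 3, or WT replicates 1, 3 or 4. Its call against R594C/+ was lost without R594C/R594C replicate 2, R594C/+ replicates 1, 2 or 3, or WT replicates 1 or 4. With library totals, 1 member passed in each comparison, Tmed3 against WT and Rabac1 against R594C/+, and the median of all genes moved to 0.115 and 0.29. The members' median then was −0.13 against WT, a smaller shift of the same sign, and turned to 0.06 against R594C/+. The downward shift of the list from R594C/+ therefore holds only relative to the other genes of the cell.

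Cycling cells made up 22.7% and 23.4% of the gated cells in R594C/R594C, 13.2% to 33.3% in WT and 15.7 to 20.0% in R594C/+. With TMM scaling, Rabac1 and Tmed3 were also the members that fell most with cycling, while Lman1 rose with it. With library totals, Tmed3 was not past the threshold there. Among cells with 0 cycling UMIs, an alternative chosen after seeing the data, Tmed3 still passed against WT (−1.02, edgeR adjusted p = 0.0193). Rabac1 (−0.455, adjusted p = 0.15) and Lman1 (−0.52, adjusted p = 0.184) did not. Against R594C/+, 0 members passed in those cells, where the log2 fold changes were −0.77 for Tmed3 (edgeR adjusted p = 0.118), −0.52 for Rabac1 (adjusted p = 0.0913) and −0.46 for Lman1 (adjusted p = 0.312). These sums hold 22 to 80 cells per replicate, fewer than the full gate. The part of cycling in the genotype calls was not tested. Immunoglobulin transcripts were 57.9 to 60.02% of UMIs in WT, 60.9 to 63.3% in R594C/+ and 54.3% and 56.6% in R594C/R594C. In a fit without immunoglobulin genes, all 3 passed against WT. With expressed sex as a term, all 3 also passed.

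Other members at the ends of the range did not pass. Mcfd2, the partner of Lman1, was at 54.8, 34.7, 43.2 and 46.7 scaled CPM in WT, 56.97, 63.2, 37.9 and 49.7 in R594C/+ and 13.3 and 30.6 in R594C/R594C, on 10 to 59 UMIs per replicate. Both homozygous values were the lowest, and the log2 fold change from WT was −1.04 ± 0.32 (edgeR adjusted p = 0.321). Kdelr3 was at 15.9, 26.95, 20.5 and 15.6 in WT, 10.8, 21.4, 15.1 and 8.699 in R594C/+ and 13.3 and 7.98 in R594C/R594C (−0.92 ± 0.44, adjusted p = 0.663). Sec24d, at 115, 93.7, 79.6 and 101 in WT, 81.6, 107, 87.8 and 77.1 in R594C/+ and 73.1 and 57.2 in R594C/R594C, had a log2 fold change of −0.61 ± 0.20 (adjusted p = 0.371).

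Sec24a stood at the other end. It was at 118, 149, 93.3 and 109 scaled CPM in WT, 149, 159, 168 and 136 in R594C/+ and 170.1 and 161 in R594C/R594C. Both homozygous values lay above WT, the second of them within the range of R594C/+, and the log2 fold change from WT was 0.46 ± 0.16 (edgeR adjusted p = 0.407). The next highest were Sec16a (53.01, 35.9, 34.1 and 46.7 in WT, 43.9 and 50.5 in R594C/R594C, 0.13 ± 0.26), Copz1 (77.7, 87.3, 95.5 and 75.9 in WT, 106 and 78.4 in R594C/R594C, 0.115 ± 0.19) and Copa (168, 194, 139 and 146 in WT, 161 and 195 in R594C/R594C, 0.11 ± 0.15). In all 3 the groups overlapped.

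By role, all 11 cargo receptors, all 3 KDEL receptors and all 10 tethers, SNAREs and Golgi membrane proteins had a log2 fold change below 0 from WT, with medians of −0.31, −0.25 and −0.25. The COPII role was mixed, with 8 of 12 below 0 and a median of −0.12, and the COPI role had 7 of 9 below 0 and a median of −0.205. Of all 7719 genes, 3905 were below 0, and these signs use TMM scaling. Without overlap, 16 of the 45 genes had both R594C/R594C values below all WT values and 1 (Sec24a) above them, while 6.59% of all genes were below and 8.32% above. Against all 8 other replicates, 14 of the 45 were below and 0 above, while 3.47% and 3.43% of all genes were. The 14 were Sec24d and Preb of the COPII role, the cargo receptors Lman1, Lman2, Mcfd2, Tmed3, Tmed9, Tmed10 and Surf4, the COPI and ARF genes Cope and Arf4, the tethers Golgb1 (giantin) and Golga4, and Rabac1. Summed by role, cargo receptors were at 3503 to 3829 scaled CPM in WT, 3574 to 4213 in R594C/+ and 2953 and 2998 in R594C/R594C. The COPII role was at 1246 to 1423, 1269 to 1440, and 1204 and 1268, so it overlapped WT.

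**Figure D4:**
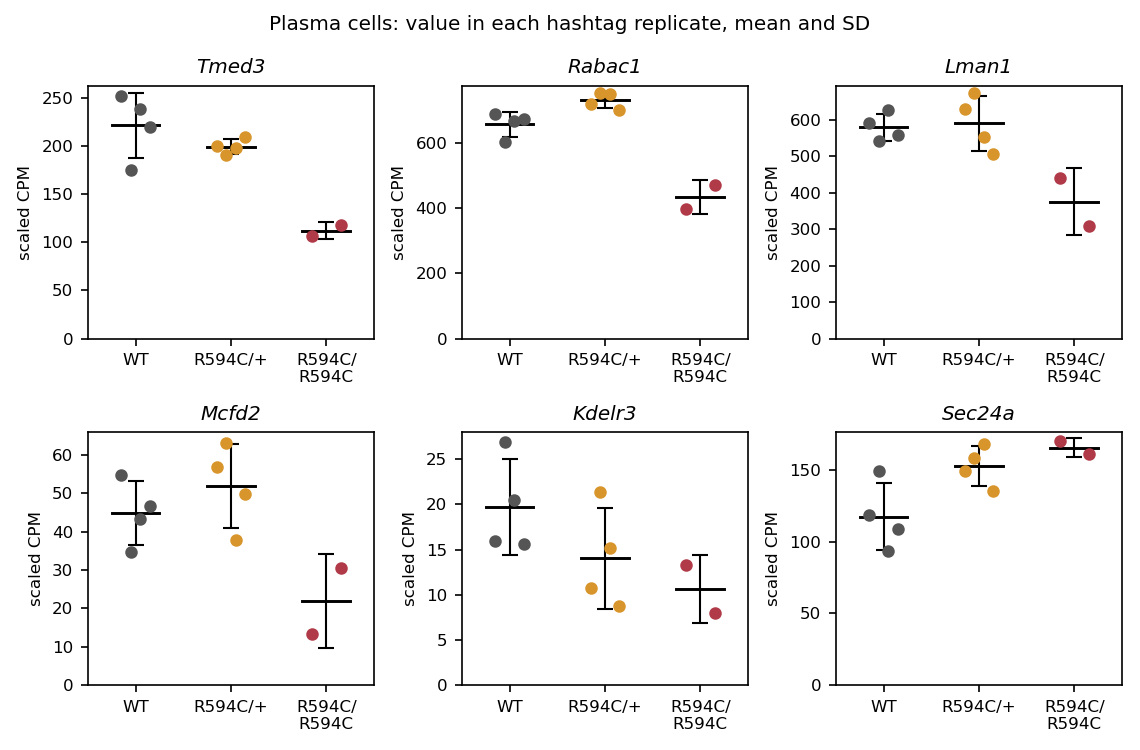
Level in plasma cells (scaled CPM, axis from 0) of 6 members in each hashtag replicate (points) by genotype, with the mean (line) and SD (bars). For Tmed3, Rabac1, Lman1 and Mcfd2 both R594C/R594C points lie below all others, for Kdelr3 the groups overlap, and for Sec24a the R594C/R594C points lie above WT.

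In R594C/+ plasma cells, 0 of 45 members passed against WT (edgeR), where 0.22% of all 7719 genes did. With an unadjusted p under 0.05 there were 2 members (597 of all genes), Sec23a and Sec24a, and the median log2 fold change was −0.01 for the members and −0.004 for all genes. DESeq2 also called 0. Sec23a was at 35.3, 44.9, 29.6 and 40.8 scaled CPM in WT and 20.02, 26.8, 22.7 and 31.1 in R594C/+, with an overlap, and its log2 fold change was −0.61 ± 0.23 (edgeR adjusted p = 0.496). The next lowest were Kdelr3 (−0.52 ± 0.34), Copg1 (106, 103, 68.2 and 89.5 against 92.4, 87.8, 60.6 and 82.02, −0.22 ± 0.16) and Sec23b (90.1, 82.1, 125 and 85.6 against 93.9, 95.3, 69.7 and 72.1, −0.22 ± 0.17). The highest were Sec24a (0.34 ± 0.13), Sec24b (21.2, 17.97, 11.4 and 9.72 against 12.3, 26.8, 16.7 and 21.1, 0.31 ± 0.34), Sec16a (0.27 ± 0.21, with R594C/+ at 46.2, 66.4, 51.5 and 43.5) and Sec22b (122, 163, 95.5 and 154 against 189, 145, 139 and 163, 0.21 ± 0.15). Rabac1 and Yipf5, a membrane protein of the early Golgi, had all 4 R594C/+ values above all 4 WT values, and 0 of the 45 had them below, while 2.82% of all genes were above and 1.72% below.

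In R594C/R594C against R594C/+, the same 3 genes passed and no other, with 0.337% of all genes called, 0.272% lower. Of the 45, 38 were below 0 (3802 of all 7719 genes were). The median was −0.23, against 0.01 for all genes (0.06 and 0.29 with library totals, and −0.15 for members in cells with 0 cycling UMIs). Here Mcfd2 was again the lowest (−1.24 ± 0.31, edgeR adjusted p = 0.0901), and Tmed10, at 922, 856, 780.2 and 755 scaled CPM in WT, 1004, 941, 848 and 942 in R594C/+ and 673 and 698 in R594C/R594C, had a log2 fold change of −0.44 ± 0.10 (adjusted p = 0.0691). The highest were Copz1 (0.26 ± 0.19), Sec24a (0.12 ± 0.155), Copa (0.12 ± 0.145) and Sec23a (0.07 ± 0.29), with R594C/+ values of 72.4, 95.3, 74.2 and 65.9 for Copz1 and of 172, 164, 171 and 152 for Copa. Without overlap, 20 of the 45 were below and 0 above, with 10.6% and 9.61% of all genes.

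Of 75 further pathway genes tested in plasma cells, 0 passed in any of the 3 genotype comparisons (edgeR), with 7, 2 and 10 at an unadjusted p under 0.05 for R594C/R594C minus WT, R594C/+ minus WT and R594C/R594C minus R594C/+. Their medians were −0.05, 0.08 and −0.09. Markers of other cells in the gate differed between captures. The 9 neutrophil markers summed to 11.4 to 29.5 scaled CPM in WT, with Mmp8 and Cxcr2 at 0, to 129 to 248 in R594C/+ and to 33.2 and 42.5 in R594C/R594C, with Retnlg at 0. The 8 germinal centre B markers, all detected, summed to 291 to 508, 174 to 355, and 304.4 and 384.1. The 8 follicular B markers summed to 1101 to 1418, 1304 to 1571, and 1001 and 1398. The 8 erythroid markers summed to 15.9 to 42.8 in WT, with Alas2 and Ahsp at 0, to 118.1 to 724 in R594C/+, with Ahsp at 0, and to 91.7 and 118.3 in R594C/R594C, with Alas2 and Ahsp at 0. Neutrophil and erythroid sums were thus higher in every replicate of both R594C genotypes than in WT. The 8 CD4 T cell markers summed to 13.7 to 52.6, 27.3 to 46.95, and 31.9 and 63.8, with Cd40lg at 0 in WT and R594C/R594C. The 9 macrophage markers summed to 17.5 to 70.7, 26.2 to 53.01, and 38.5 in both R594C/R594C replicates, with C1qa and Spic at 0 there. The part of these cells in the genotype results was not tested.

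In follicular-like, marginal zone-like and B1-like B cells, no member passed a test between genotypes. In follicular-like B cells, 0 of 43 tested passed in each of the 3 comparisons (edgeR), where 0.191%, 0.462% and 0.412% of all 9960 genes did for R594C/R594C minus WT, R594C/+ minus WT and R594C/R594C minus R594C/+. At an unadjusted p under 0.05 there were 1, 2 and 1 members, and their medians were −0.01, −0.025 and 0.03. Against WT, R594C/R594C ranged from Sec22b (59.1, 55.5, 60.2 and 44.3 scaled CPM in WT, 43.2 and 48.3 in R594C/R594C, −0.33 ± 0.12) to Sec23a (17.5, 10.96, 11.9 and 8.56 in WT, 14.96 and 15.1 in R594C/R594C, 0.25 ± 0.22). The 3 genes that fell in plasma cells had log2 fold changes here of −0.11 for Tmed3, −0.02 for Rabac1 and 0.08 for Lman1. DESeq2 called 0 as well. Of 77 further pathway genes, 0 passed in any of the 3 comparisons (edgeR), with 3, 5 and 2 at an unadjusted p under 0.05.

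In marginal zone-like B cells, 0 of 43 members passed in each comparison (edgeR), with 0.221%, 0.419% and 0.188% of all 9065 genes called and 2, 4 and 1 members at an unadjusted p under 0.05. The most distant was Sec23a in R594C/+ minus WT, at 17.95, 12.3, 10.97 and 10.3 scaled CPM in WT, 7.58, 8.85, 9.17 and 7.46 in R594C/+ and 7.101 and 10.7 in R594C/R594C. All R594C/+ values lay below WT, and the log2 fold change was −0.675 ± 0.27 (edgeR adjusted p = 0.471). In B1-like cells, 0 of 44 passed in each (edgeR), with 0.174%, 0.0813% and 0.209% of all 8606 genes called and 3, 1 and 3 members at an unadjusted p under 0.05. The most distant was Sec24d, at 7.07, 10.2, 0 and 11.6 in WT, 11.3, 11.8, 7.33 and 12.02 in R594C/+ and 0.9195 and 2.48 in R594C/R594C, on 81 UMIs in all. Both homozygous values lay below R594C/+, WT replicate 3 was at 0, and the log2 fold change was −2.525 ± 0.69 from R594C/+ (edgeR adjusted p = 0.108) and −2.22 ± 0.74 from WT (adjusted p = 0.237). DESeq2 called 0 members in each of these 6 comparisons. Of 76 further pathway genes tested in each class, 0 passed (edgeR), with 2, 4 and 3 at an unadjusted p under 0.05 in marginal zone-like and 6, 4 and 8 in B1-like cells.

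**Figure D5:**
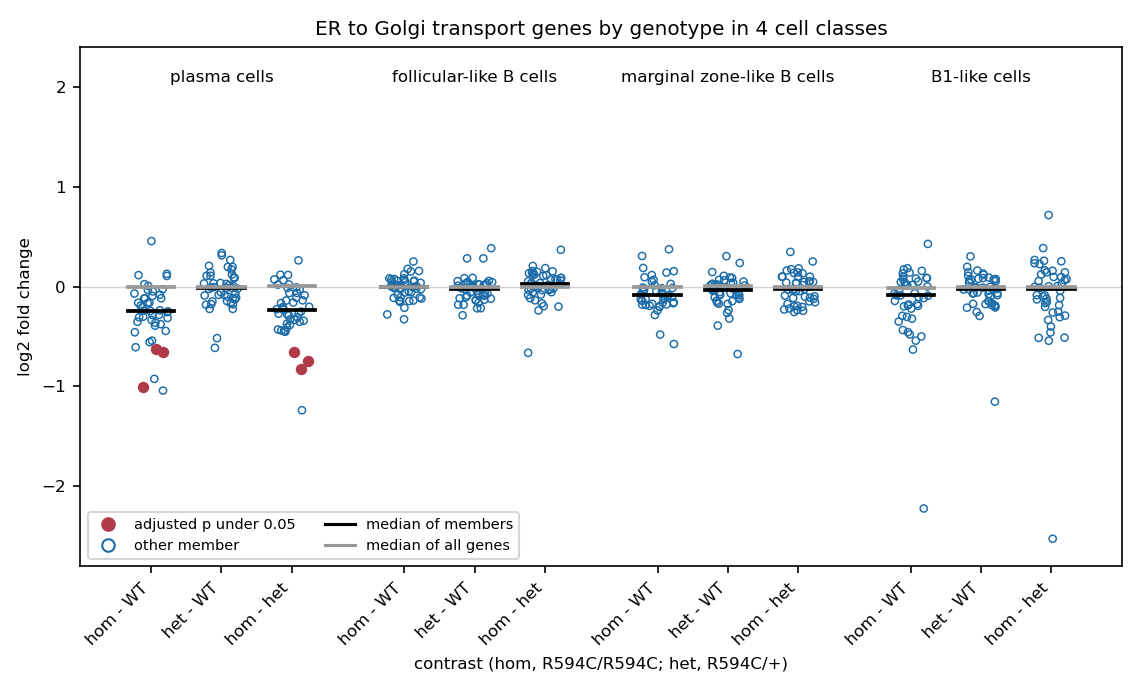
Log2 fold change of each member tested (points) for 3 genotype contrasts in 4 cell classes, with the median of the members (black line) and of all genes tested (grey line). Filled red points passed adjusted p 0.05 and are found in plasma cells only, in the 2 contrasts with R594C/R594C, where the members' median lies at −0.24 and −0.23.

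Whether the change in R594C/R594C was larger in plasma cells than in follicular-like B cells was tested as an interaction (edgeR, with each replicate as a block). None of the 45 members passed, where 5 of 10141 genes (0.0493%) did, and 10 members had an unadjusted p under 0.05 (586 of all genes). DESeq2 called 0 members. The median difference of the log2 fold changes was −0.17, with 40 of 45 below 0 (5075 of all 10141 genes were). It was −0.03 with library totals (0.13 for all genes), −0.24 and −0.26 with the wider gates and −0.25 without R594C/R594C replicate 1. The nearest to the threshold was Rabac1 (−0.605 ± 0.13, edgeR adjusted p = 0.0964), followed by Lman1 (−0.74 ± 0.185, adjusted p = 0.219) and Tmed3 (−0.88 ± 0.22, adjusted p = 0.228). Sec23a (−0.80 ± 0.37) and Mcfd2 (−0.78 ± 0.43) were also among the lowest, and Kdelr3 (0.55 ± 1.78), Sec24a (0.38 ± 0.23), Sec22b (0.15 ± 0.22) and Copa (0.085 ± 0.17) were the highest. With the filter on low counts, a difference between the classes was therefore not shown for any single member. Without that filter some members passed, as counted in the closing section.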

How the data were processed

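The authors deposited raw UMI counts for genes, antibodies and hashtags in each barcode, made with Cell Ranger 5.0.0 per the file headers. The submitters' processing notes also name STAR, Seurat 3.1.4 and mm10, with no role or order. A barcode was kept if it held 200 genes or more and no more than 10% mitochondrial UMIs. HTODemux assigned the hashtags (Seurat 5.3.0, k-means in place of its default clustering, which left many clearly tagged barcodes uncalled, quantile 0.99), and doublets within a hashtag were removed by their likeness to simulated doublets (2 per cell), which left 13004 WT, 14828 R594C/+ and 13810 R594C/R594C cells. Removed doublets numbered 523, 688 and 1640, or 3.87%, 4.43% and 10.62% of the cells with 1 hashtag. That share was set from the doublets seen between hashtags, of which R594C/R594C had 2 and the other captures 4, so removal was heaviest in R594C/R594C. Cells were clustered on 2000 variable genes, with the transport genes left out, by Leiden clustering at resolution 1.5, and clusters were named from fixed markers (at least 3 at 2-fold). Of the gated plasma cell barcodes, 214 had no or several hashtags and were not used.

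UMIs were summed per replicate and class (at least 10 cells) and tested with edgeR 4.0.16 (robust quasi-likelihood, TMM, filterByExpr, Benjamini-Hochberg at 0.05). Comparisons of classes had the hashtag replicate as a block, and genotype comparisons pooled the spread of all 10 replicates. Alternatives were DESeq2 1.42.0, library totals, no filter, no immunoglobulin genes, doublets kept, a hashtag margin rule (3 times the next hashtag and 10 UMIs), the replicate block turned on or off, expressed sex as a term, other gates, other clusters and leaving out each replicate. Plasma cells with 0 cycling UMIs, and clustering from another random start, were alternatives chosen after seeing the data. The test was tried on simulated counts first. For R594C/R594C minus WT in plasma cells it recovered 41 of 98 2-fold changes (41.8%) and 86 of 97 4-fold changes (88.7%). In follicular-like B cells it recovered 77 of 98 (78.6%) and 97 of 98 (99%). False calls numbered 4 and 7. Changes of 2-fold or less can therefore go uncalled in plasma cells. PCR errors are covered only as far as UMIs remove them. No measured value was used to list the members. They, the wider list of 84 genes and the tests were still chosen with earlier results of these data known. Members named are the 4 highest and 4 lowest of each comparison, paralogs, and those that passed where 10 or fewer did. Their values by replicate (in groups of over 5, the lowest, median and highest) are given once, and a member described before, or named for the interaction, carries its fold alone (Kdelr2 in non-cycling cells, its median). In the 9 genotype comparisons of follicular-like, marginal zone-like and B1-like cells, where none passed, only the members at the ends are named. Protein sequences were not used here. 1 erythroid marker is not reported here. Columns of per-sample values left unused numbered 0.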

Additional observations from a re-analysis of the deposited data

Results flagged for a closer look

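Among 180 groups of 4 replicates (45 members, WT and R594C/+, plasma cells and follicular-like B cells), 4 had 1 replicate set apart by a gap that exceeds Dixon's 95% limit. Chance flags about 1 in 20 such groups. In plasma cells these were Arf1 in R594C/+ replicate 2 (385.4 scaled CPM, the others 358.9 to 363.4), Gosr2 in WT replicate 1 (70.67, the others 86.43 to 87.52) and Stx5a in WT replicate 3 (102.4, the others 140.0 to 147.6). In follicular-like B cells it was Bet1 in R594C/+ replicate 3 (24.45, the others 20.74 to 21.29). Arf1 and Bet1 lay above the rest of their group, and Gosr2 and Stx5a below.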

How the results depend on the processing

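Across comparisons and alternatives, 344 counts of called members stayed within 1.5 times the count in the report and 18 did not. For R594C/R594C minus WT in plasma cells (3 called), the count was 1 with library totals, 1 with the replicate block and 1 in cells with 0 cycling UMIs, and 0 to 3 when a replicate was left out. For R594C/R594C minus R594C/+ (3 called), it was 1 with library totals, 5 with doublets kept, 1 with plasma cell-like clusters in place of the gate and 0 in cells with 0 cycling UMIs, and 1 to 3 when a replicate was left out. Library totals gave 25 called members for marginal zone-like minus follicular-like B cells (14 in the report, now 4 higher and 21 lower) and 37 for cycling minus non-cycling plasma cells (16), where DESeq2 gave 8. The shares of all genes called with library totals are not given. Without a filter on low counts, 10 passed for plasmacytoid DC-like cells (18), 1 for R594C/R594C minus R594C/+ in B1-like cells (0) and 2 for the interaction (0). With library totals, 4 named members turned sign: Sec22b (0.47) and Tmed10 (0.42) with cycling, and Sec16a (−0.56) and Tmed7 (−0.67) in plasma cells against follicular-like B cells. The median of all genes shifted with that scaling as well, and the causes of these changes were not tested. Clusters set the borders of the B cell and plasmacytoid DC-like classes, and at resolution 1.0 the counts called were 15 for marginal zone-like, 20 for B1-like and 17 for plasmacytoid DC-like cells, and from another random start 14, 19 and 17. Members close to the threshold changed sides: Golga4 in plasmacytoid DC-like cells passed in 8 of 15 alternatives, Copa in marginal zone-like B cells in 8 of 19 and Sec13 with cycling in 7 of 19.

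The labels tie same-numbered samples by hashtag only. Deviations of same-numbered samples correlated at −0.088 to 0.093 over 4282 genes in plasma cells and at −0.101 to 0.454 over 8250 genes in follicular-like B cells. Replicates 1 and 2 of WT and R594C/R594C also share expressed sex and correlated at 0.106 and 0.454 there. Under that replicate block Tmed3 kept its call against WT (edgeR adjusted p = 0.045), Lman1 (adjusted p = 0.0738) and Rabac1 (adjusted p = 0.0767) did not, Tmed3 lost its call against R594C/+ (adjusted p = 0.084), and no other count moved by over 1.5 times. Leaving out 1 R594C/R594C replicate leaves 1 sample in that group, which is then assumed to vary like the others. The plasma cell sums hold 42 to 125 cells, 5 to 25 UMIs of Sec24b and 6 to 21 of Kdelr3 per replicate.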
